A study of Mus musculus with 18 samples.

Results

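The m6A levels of circRNAs in the cortex of sham-operated mice are described here from the sham arrays alone. These were chosen by the sample titles and hold 6 of the 18 samples, namely 3 immunoprecipitated (IP) and 3 supernatant (Sup) samples. All came from C57BL/6J mice of 10 weeks that had the operation without occlusion of the middle cerebral artery (MCAO). The other 12 samples came from cortex around the infarct, taken 3 days (3d) or 7 days (7d) after MCAO. RNA was split with an anti-m6A antibody into the bound IP fraction and the unbound Sup fraction, treated with RNase R, amplified, and labeled with Cy5 for IP and Cy3 for Sup. Both fractions of a sample were hybridized to 1 array. The labels call the samples biological replicates, and whether a sample was 1 mouse or a pool was not given in the sources used here. The source label of the Sup sample of sham replicate 1 names tissue around an infarct although its title and treatment say sham, and the description of sham replicate 3 carries another replicate number. The titles were used.

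N6-methyladenosine (m6A) is a methyl mark on adenosines of RNA. Proteins of the YTH family bind the mark. FTO and ALKBH5 can take it off again, and the complex that sets it is built around METTL3 and METTL14. Circular RNAs (circRNAs) arise when a splice donor is joined to an acceptor upstream of it. They lack free ends, which makes them resistant to RNase R, and they are plentiful in the brain, where many come from genes of the synapse.

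The array carries 14236 circRNA probes of 1 spot each, 50 mRNA probes of 10 spots and 102 spike-in probes. The m6A level of a probe was the part of its summed IP and Sup signal that lay in IP, in percent, and its abundance was log2 of that sum, both after spike-in scaling. A level of 50% is thus the ratio at which the scaling spike-in probes stand on average, and it is no count of methylated molecules. Signal also depends on the probe, so that abundance orders probes by brightness. Each fraction had its own dye on every array, so that fraction and dye cannot be told apart.

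More circRNA probes were detected in Sup than in IP on each sham array. Detection means that the software marked the spot as well above its background. In IP there were 11394 such probes on sham replicate 1, 11039 on replicate 2 and 11867 on replicate 3. In Sup there were 12556, 12993 and 13346. Both channels were detected for 11075, 10845 and 11652 probes, or 77.8%, 76.2% and 81.8% of all. Sup alone was detected for 1481, 2148 and 1694 probes, and IP alone for 319, 194 and 215. The median circRNA intensity in IP was 36.5, 37.5 and 39.0 over a median local background of 15, 16 and 17, and in Sup it was 53, 65 and 72 over 16, 16 and 15.5. Of the 122 spots of negative control probes, 14, 22 and 25 carried the mark in IP and 10, 14 and 16 in Sup, so that the mark was also set on spots meant to have no target.

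Over the 3 arrays, 10177 circRNA probes (71.5%) were detected in both channels on all of them, and 542 (3.81%) in neither channel on any. A group of 725 probes (5.09%) was detected in Sup on all 3 arrays and in IP on none, and the reverse held for 17 probes (0.119%). The brightest probe found in Sup alone was ASCRP4012475, with processed Sup signals of 4289, 3006 and 2362 and IP signals of 35.6, 54.0 and 43.8. After spike-in scaling, its Sup was at least 51.6-fold higher than its IP. Here the IP value is a bound, the higher of its own signal and the lowest signal well above background in that channel, and it is open to dye bias. The next probes were ASCRP4001611, ASCRP4001431, ASCRP4000450 and ASCRP4003623, with bounds between 12.6 and 16.8. For the 5 brightest probes found in IP alone the bounds were far smaller, with 1.67 for ASCRP4001605 and 1.33 for ASCRP4008285 at the ends of the range. These are the brightest of each kind. Over all 725 probes found in Sup alone the median bound was 2.64, with 709 above 1.5 and 540 above 2, and over the 17 found in IP alone it was 1.20, with 2 above 1.5. All bounds are on the spike-in scale, which raises Sup relative to IP. The log2 constants taken off were 13.70, 13.71 and 13.82 in IP and 12.95, 12.84 and 12.52 in Sup. The difference in size between both kinds of bound thus rests on that scaling, and no bound is given without it.

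Levels were then compared over the 10155 circRNA probes detected in both channels on all 3 arrays and free of marks for uneven spots. The other 4081 probes have no tested level. The median level was 39.9% on sham replicate 1, 37.7% on replicate 2 and 31.0% on replicate 3, or 36.2% ± 4.64 (SD, n = 3). Replicate 3 was the lowest. With all 102 spike-in probes in place of the 10 that set the scale, the medians were 40.4%, 37.6% and 37.0%. The lowest 5% of probes lay below 11.4% and the highest 5% above 59.0%, as means of 3 arrays. A level above 50% was found on all 3 arrays for 1052 probes (10.4%) and on none for 7102 (69.9%). Before dye normalization these were 399 (3.93%) and 9014 (88.8%).

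**Figure D1:**
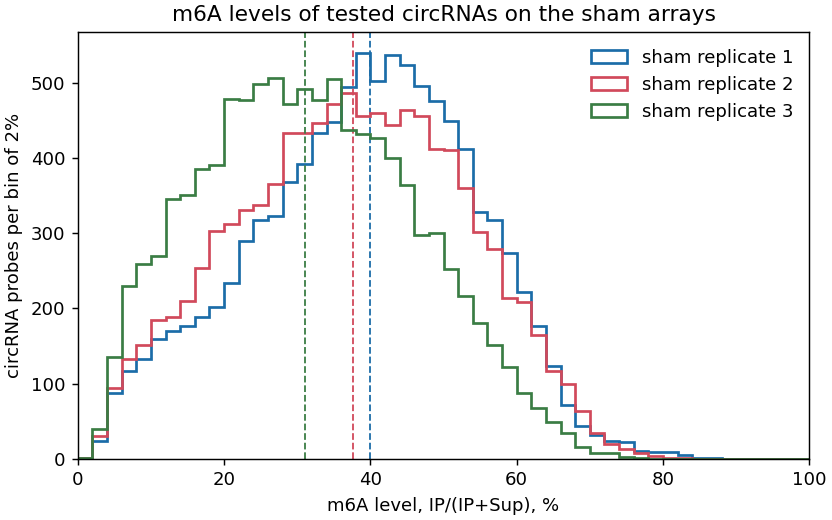
Number of tested circRNA probes in bins of 2% of the m6A level (IP in the sum of both channels), with 1 line for each sham array and the array's median as a dashed line. The medians are 39.9%, 37.7% and 31.0%, and the whole distribution of sham replicate 3 lies to the left of the others.

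Against the zero set by the spike-in probes, 405 of 10155 probes (3.99%) had IP above Sup and 5883 (57.9%) had Sup above IP, by limma on the log2 ratio of each array, with a Benjamini-Hochberg adjusted p below 0.05 and a fold above 1.5. IP above Sup thus made up 6.44% of the calls. This split rests on the scaling: with all spike-in probes the counts were 651 and 5403 (10.8%), and with within-array loess, which sets the typical ratio to zero, they were 2805 and 2857 (49.5%). The mean over arrays of the median log2 ratio was -0.82 on the main scale, -0.69 with all spike-in probes and 0.02 with loess. Before the software's dye normalization only 48 probes had IP above Sup. Without sham replicate 2 the count of IP above Sup was 118, and without replicate 3 it was 658.

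A comparison with the median circRNA of the same array does not use that zero. Here 2694 probes (26.5%) were above the median circRNA and 2989 (29.4%) below it, at the same threshold. Before dye normalization the counts were 2792 and 3093, of which 2243 and 2705 were shared with the main calls, and none was called in the opposite direction. With normexp and an offset of 50 they were 992 and 1710, and without background correction 1824 and 1997. The order of levels was also alike between arrays. Across the 10155 probes, which are not independent replicates, the Spearman correlation of the level was 0.900 for replicates 1 and 2, 0.851 for 1 and 3, and 0.923 for 2 and 3. Of the 1016 probes with the highest levels of an array, 495 (48.7%) were among the highest 1016 on all 3 arrays, and of the 1016 with the lowest levels 648 (63.8%) were among the lowest on all 3.

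The probe with the highest level was ASCRP4008848, at 85.4%, 82.5% and 74.5% on the 3 arrays. Its log2 ratio was 2.93 above the median circRNA (standard error 0.16, limma adjusted p = 2.27e-06), and all 3 arrays lay far above their medians. The others among the 8 highest had mean levels between 73.5% for ASCRP4013432 and 76.4% for ASCRP4010655. The lowest level belonged to ASCRP4009384, at 1.75%, 1.59% and 1.63%, which was -5.07 relative to the median circRNA (standard error 0.17, limma adjusted p = 1.51e-06). The 8 lowest probes had mean levels up to 3.18%, in ASCRP4013638, and include the circRNA of Bmper described with the named circRNAs. These probes have no gene name in the files.

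The spread over arrays was small beside the range of levels. The median SD of a probe over the 3 arrays was 4.76 percentage points, while the SD of mean levels between circRNAs was 14.4. The SD of a probe includes the shift of whole arrays. The array medians alone had an SD of 4.64, or 1.79 with all spike-in probes. In 5 equal bins of abundance the median SD was 5.91 in the scarcest probes, then 5.42, 4.76 and 4.38, and 3.45 in the most abundant. The largest SD was found in ASCRP4012494, at 80.6%, 59.6% and 22.5%, followed by ASCRP4001513 at 75.1%, 55.5% and 24.3% and ASCRP4000559 at 67.6%, 55.6% and 19.6%. In all 3 of these probes sham replicate 3 was the low array, and none passed the test against the median circRNA. The smallest SD was that of ASCRP4013541, with 32.0% on each array.

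The relation of level to abundance depended on the processing. With the processed signals, the median level of the most abundant of the 5 bins minus that of the scarcest was -8.41, -9.21 and -10.5 percentage points on the 3 arrays. The mean difference was -9.39 ± 1.08 (SD, n = 3; two-sided exact sign-flip p = 0.25, the smallest that 3 arrays allow). It was lower on 3 of 3 arrays, also with abundance taken from the other 2 arrays, at -9.16 ± 1.72 (SD, n = 3). The processed signals had already been dye-normalized by the software with a curve fitted over intensity. With the background-subtracted signals before that step, an alternative added after the data were seen, the difference was 1.29 ± 2.81 (SD, n = 3; exact sign-flip p = 0.50), and its sign differed between arrays. On that scale the levels were lowest in the middle of the abundance range, at 27.8%, 21.9% and 19.4%, against 33.6%, 31.1% and 29.0% in the scarcest and 36.5%, 34.0% and 27.1% in the most abundant bin. The direction also turned without background correction, to 4.68. Within-array loess gave 0.94, but it fits and removes the trend over intensity in these same probes, so that it cannot show a direction. No direction of the relation is therefore drawn. The order of mean levels was largely shared between both scales, with a Spearman correlation of 0.942 across the 10155 probes.

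**Figure D2:**
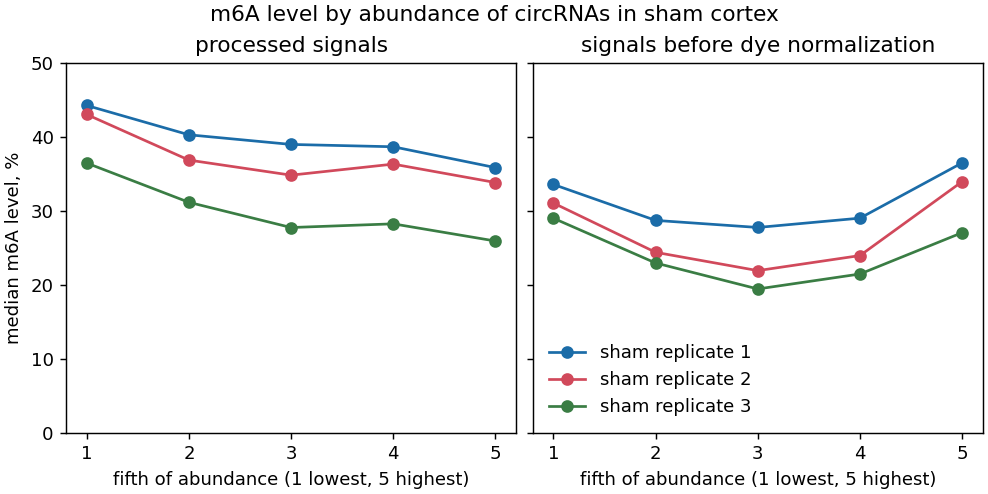
Median m6A level in % of circRNA probes in 5 equal bins of abundance (log2 of IP plus Sup, 1 lowest and 5 highest) on each sham array, with the processed signals on the left and the signals before dye normalization on the right. The level falls toward the most abundant bin on the left and is lowest in the middle on the right.

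The 8 most abundant circRNA probes had mean levels between 2.91% and 32.8% with the processed signals. The most abundant was the circRNA of Rn45s, at 7.08%, 5.07% and 6.10%. Rn45s is the precursor of ribosomal RNA, and this circRNA overlaps it in sense. The circRNA of Cmss1, an intronic one, had 12.3%, 7.64% and 7.90%. ASCRP4013042 was both among the most abundant and among the lowest, with a level of 2.91% ± 0.185 (SD, n = 3). ASCRP4004672 was the exception at 35.6%, 32.4% and 30.4%, and it was not called against the median circRNA. Of the 8 probes, 7 were called below the median circRNA, beside 29.4% of all tested probes and 41.3% of the most abundant of the 5 bins. Before dye normalization 5 of the 8 were below, ASCRP4008132 and ASCRP4001750 lost their calls, and ASCRP4004672 was above.

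Names were available for 55 circRNA probes. The files give probe identifiers without names, and a name was joined where the fold change and P value between groups, computed from these files as in the methods, met those listed for 1 named circRNA within relative tolerances of 1e-04 and 0.001. All 60 listed entries met exactly 1 probe, but the match is not one to one: they hold 56 names, and both names listed for Slc9a2 share the same values and so the same probe. Identity therefore rests on that match and not on an identifier or a sequence. The study listed these circRNAs for a change between groups, mostly against these same sham samples, so that their sham levels are not independent of that choice. Of the 55, 37 were tested, 4 were above and 23 below the median circRNA, and 10 were not called, beside 26.5% above and 29.4% below among all tested probes.

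Of the 8 named circRNAs in the list of the synapse and of excitability, 7 were tested, and all 7 were below the median circRNA, beside 23 of the 37 named and 29.4% of all tested probes. Their median log2 ratio relative to it was -2.69, beside -1.09 over the 37 named and tested circRNAs and 0.01 over all tested probes. It was -1.84 before dye normalization and -1.72 without background correction, where 5 of 7 were called. The circRNA of Rims1, whose product organizes the presynaptic active zone, had 6.59%, 4.84% and 3.79%, or -3.44 relative to the median circRNA (standard error 0.16, limma adjusted p = 1.51e-06). That of Arhgap32 had 4.99%, 5.14% and 6.04%. The 3 arrays of both lay close together and far below the array medians. Dtnb, which encodes dystrobrevin beta, gave a circRNA with 6.87%, 6.50% and 9.01%. For Calm3, a calmodulin gene, the levels were 10.2%, 5.69% and 8.84%, and for Anks1b, a postsynaptic scaffold gene, 12.4%, 7.29% and 7.00%. These 5 were also called before dye normalization.

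The circRNAs of 2 channel genes were less uniform. That of Scn2a1, which encodes a voltage-gated sodium channel, had 29.7%, 25.8% and 7.84%. That of Glra2, a glycine receptor subunit, had 36.7%, 23.9% and 9.10%. In both, the level on sham replicate 3 was far below the others. The processed Sup signals were 7521, 7437 and 39852 for Scn2a1 and 6341, 7544 and 24759 for Glra2. Those of IP were 5351, 4713 and 8350 for Scn2a1 and 6189, 4334 and 6102 for Glra2. The low level on replicate 3 thus went with a higher Sup signal and not with a lower IP signal. Neither was called before dye normalization, so that 5 of 7 were then below the median circRNA, and Glra2 lost its call without replicate 3. The 7 tested circRNAs of the synapse list were bright, between the 83.4th and the 97.9th percentile of abundance. Of all probes in the most abundant of the 5 bins, 41.3% were called below. The part of brightness in their low levels was not tested. Those of Rims1, Arhgap32, Anks1b and Calm3 were listed by the study for a rise over sham in 3d, a choice that favors low sham levels. The circRNA of Adgrb3, an adhesion receptor of synapses, was detected in IP on 2 arrays and was not tested.

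The noncoding or non-exonic list holds 6 of the 10 named circRNAs that are intronic or sense overlapping, and it shares Calm3 with the synapse list. All 6 were below the median circRNA, beside 23 of the 37 named and 29.4% of all tested probes. Those of Malat1, Rn45s, DQ715306, Cmss1 and Calm3 were listed by the study for a rise over sham in 3d, a choice that favors low sham levels. Their median log2 ratio relative to it was -2.67, and -1.67 before dye normalization, -1.61 without background correction and -1.76 with normexp without an offset. The 6 were among the brightest probes, from the 96.5th percentile of abundance in Calm3 up to the brightest of all in Rn45s, and 41.3% of the most abundant of the 5 bins were called below. The part of brightness in these levels was not tested either. Besides Rn45s, Cmss1 and Calm3, that of DQ715306 had 7.34%, 4.98% and 5.58%, and the intronic XLOC_027457 had 14.2%, 7.33% and 5.33%. The intronic circRNA of Malat1, a nuclear long noncoding RNA, stood higher with 37.4%, 21.7% and 16.9%. Its call was lost, among other settings, before dye normalization and without replicate 2 or replicate 3, and the list then had 5 of 6 below in each of these settings. Among those not on the list, the sense overlapping circRNAs of Arid2 and Ola1 were not tested and that of Cdk8 is described with chromatin and transcription. The sense overlapping circRNA of Bmper, a regulator of bone morphogenetic protein signaling, had 5.02%, 2.16% and 2.01%, the lowest mean level of the named circRNAs.

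In the list of chromatin and transcription, 5 of 6 tested circRNAs were below the median circRNA and none above, with 9 on the list, again beside 23 of 37 named and 29.4% of all tested probes. The count was 4 without replicate 3, without the pairing and with all 9 arrays in 1 fit, and 6 without replicate 2. With the authors' deposited log2 table it was 6 of 8. That of Maml2, a coactivator of Notch signaling, had 5.68%, 5.23% and 20.6%, with replicate 3 as the high array. The circRNA of Cdk8, a kinase of the Mediator complex, had 27.3%, 30.9% and 22.5%, and that of Kat6a, a histone acetyltransferase, 37.9%, 29.5% and 9.88%. Prdm10 and Creb3l3, which encode transcription factors, gave means of 20.2% ± 5.69 (SD, n = 3) and 20.5% ± 7.50 (SD, n = 3). That of Srebf2, a regulator of sterol synthesis, was not called, at 45.2%, 39.0% and 8.03%. Before dye normalization, and with normexp without an offset, 4 of 6 were called, with Kat6a as the one lost. Without background correction 2 of 6 were called, Maml2 and Creb3l3, and with normexp and an offset of 50 only Maml2 was.

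The list of vesicle and membrane traffic was mixed. Of 8 circRNAs, 4 were tested, of which 2 were above and 1 was below the median circRNA, with a median log2 ratio of 0.23 relative to it. In the authors' deposited log2 table, there were 7 tested, 3 above and 3 below, with a median of -0.21. With normexp and an offset of 50, and also without background correction, none of the 4 was called. That of Dopey1, a gene of membrane traffic, had 61.0%, 54.5% and 37.4%, or 0.88 above the median circRNA by limma (standard error 0.19). That of Tbc1d19, a gene with a Rab GTPase-activating domain, had 46.1%, 51.7% and 46.0%, and it was not called before dye normalization or with normexp without an offset. The circRNA of Fam126b was below at 18.6%, 29.4% and 19.7%, and that of Sytl5, a Rab effector gene, was not called at 35.6%, 30.7% and 30.9%. The circRNA of Appl1, an endosomal adaptor, was detected in Sup on 3 arrays and in IP on none, with IP signals of 38.3, 51.0 and 73.7 and Sup signals of 366, 247 and 324. Its IP was not well above background, so that no level is given.

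The other circRNAs above the median circRNA were those of Klhl32, at 62.5%, 42.5% and 47.0%, and of Mtrf1, a mitochondrial release factor gene, at 51.3%, 52.0% and 37.0%. That of Klhl32 was among the dimmest tested probes, at the 0.55th percentile of abundance, and its call was lost with within-array loess, with normexp with or without an offset and without background correction. The call of Mtrf1 was lost before dye normalization, with normexp with or without an offset and without background correction. None of the 4 named circRNAs above the median circRNA was called against the spike-in zero. Without the pairing of IP and Sup by array, the circRNAs of Scn2a1, Glra2, Malat1, Kat6a, Tbc1d19 and Mtrf1 lost their calls, which left 19 named circRNAs below and 2 above. Cdk8 lost its call without replicate 1, Tbc1d19 and Mtrf1 without replicate 2, and Kat6a without replicate 3. With normexp and an offset of 50, 13 named circRNAs were below, and the only one above was that of Bmp2k, which was not called with the processed signals; all 4 named above lost their calls. By type, 4 of 29 tested exonic circRNAs were above and 15 below, and the 3 intronic and 5 sense overlapping ones were below. Malat1 and Cdk8 are among these 8 and lost their calls in several settings, and the difference between types was not tested.

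**Figure D3:**
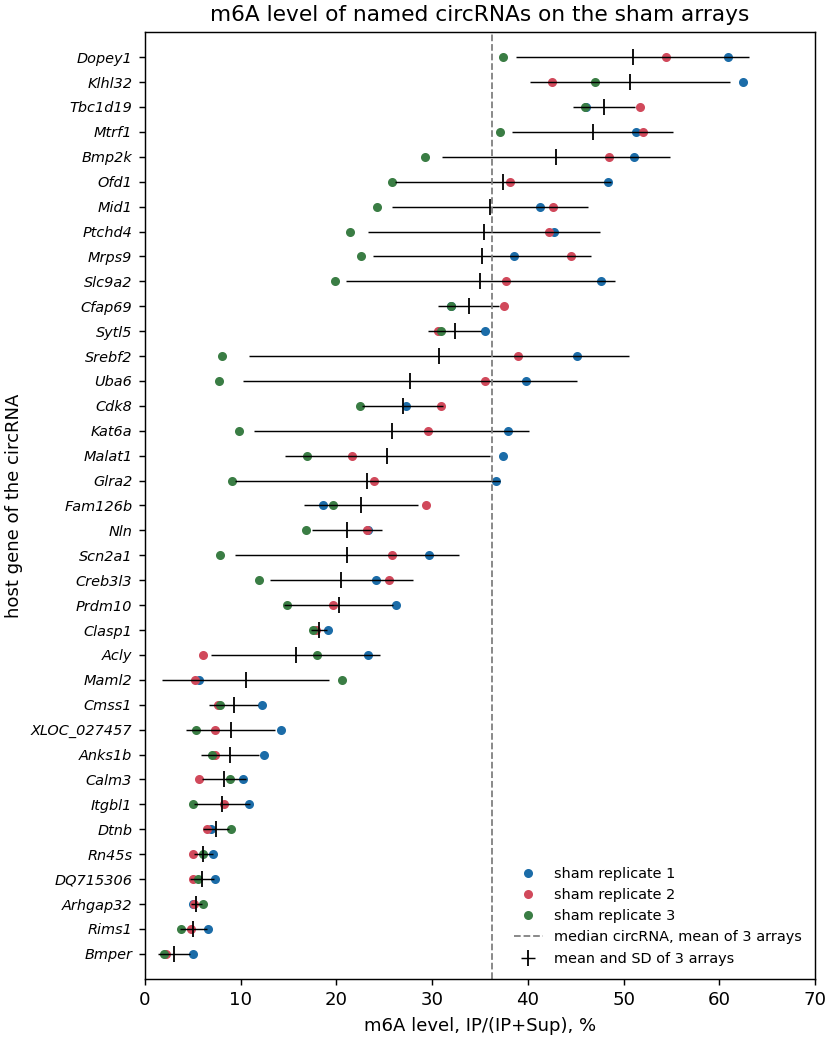
m6A level in % of the 37 named and tested circRNAs by host gene, with 1 point for each sham array, the mean and SD of the 3 arrays in black, and the median circRNA of 36.2% as a dashed line. Bmper and Rims1 are at the low end and Dopey1 at the high end, and sham replicate 3 is the lowest point for many circRNAs in the middle.

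The mRNA probes gave levels close to those of circRNAs. Of the 50 mRNA probes, 46 had a gene symbol through their accession, and 36 were detected in both channels on all 3 arrays. RNase R digests linear RNA, and how much of these mRNAs was left was not measured. The median level of the mRNA probes was 3.02, 1.23 and 4.62 percentage points higher than that of circRNAs on the 3 arrays, or 2.96 ± 1.70 (SD, n = 3; exact sign-flip p = 0.25). It was higher on 3 of 3 arrays, and before dye normalization the differences were 6.03, 6.19 and 2.80. With normexp and an offset of 50 the mean difference was 1.64. In a fit together with the circRNAs, 12 of 36 mRNA probes were above and 4 below the median circRNA, beside 26.5% and 29.4% of the tested circRNA probes. Within an array, the 10 single spots of an mRNA probe had a median SD of 1.75 percentage points. Between arrays, the median SD of the average over its spots was 5.25. The latter includes the shift of whole arrays, for which the circRNA medians had an SD of 4.64, so that these SDs are not alike.

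The highest mRNA level was that of A_51_P213099, which has no symbol, at 64.9%, 65.0% and 57.7%. It was followed by Anxa8, an annexin gene, at 58.7%, 57.3% and 53.9%, by the cytokine gene Il2 at 55.7%, 54.6% and 48.1%, and by Hspb7, a small heat shock protein gene, at 54.1%, 54.6% and 48.9%. The 3 arrays of each lay above the median circRNA of their array. The lowest was the olfactory receptor gene Olfr1307, at 12.3%, 6.96% and 5.60%, with -2.73 relative to the median circRNA (standard error 0.19, limma adjusted p = 6.39e-06). Gm9789 had 26.3%, 18.2% and 12.3%, and H2-Q7, a major histocompatibility gene, had 36.5%, 26.0% and 17.8%. Actb, which encodes beta-actin, had 29.9%, 17.2% and 16.3%, with -1.13 relative to the median circRNA. Apoe, the apolipoprotein that astrocytes secrete, was not called at 44.9%, 38.1% and 38.2%. Of the 23 cell type markers chosen, only Mbp of oligodendrocytes is among the mRNA probes, and it was detected in IP on 2 arrays, so that the tissue label could not be checked against its cell types.

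The levels of the same probes on the other arrays are given for comparison. The mean levels of sham and 7d had a Spearman correlation of 0.950 over 10122 probes, and those of sham and 3d one of 0.861 over 10104 probes. The median level was 27.8% ± 3.21 (SD, n = 3) in 3d and 37.8% ± 1.47 (SD, n = 3) in 7d. The sham arrays lay on another slide than the 3d and 7d arrays, so that group and slide cannot be told apart, and no difference was tested.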

How the data were processed

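The scanner intensities come from Agilent Feature Extraction 11.0.1.1, and the deposited files hold a processed signal that is background-subtracted, detrended and dye-normalized (linear and lowess), with other columns of the deposited files holding marks for each spot. The authors' deposited log2 values equal the log2 processed signals minus 1 constant for each channel and array. These constants equal the mean over 10 spike-in probes, with a largest difference of 2.4e-11, and were used here. Spots with outlier marks were left out, which removed 22 circRNA probes, and spots of a probe were averaged.

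Log2 ratios were tested with limma 3.58.1 in R 4.3.3 (jsonlite 2.0.0), and figures were drawn with Python 3.11.15, pandas 2.3.3 and matplotlib 3.10.9. The ratio pairs IP and Sup of 1 sample, since both share 1 scan. Probes were named by rule: the 8 highest and 8 lowest levels among called probes, the 8 most abundant, the 5 brightest in 1 channel alone, the 3 largest and 3 smallest SDs, the 4 highest and 4 lowest mRNA levels, and circRNAs with a name. Apoe was picked after its values were seen. The members and lists were chosen with earlier results of these data known. Symbols of mRNA probes came from RefSeq, assembly GRCm38.p6. The fit was tested on simulated data: large or frequent shifts were recovered, but rare shifts of 1 log2 unit against the spike-in zero were not called, so that a missing call does not show equal IP and Sup. Alternatives were other background corrections, scalings and filters, the deposited table, leaving out each array, unpaired channels, all 9 arrays together and unadjusted p. Precision is limited by the number of arrays.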

Additional observations from a re-analysis of the deposited data

How the results depend on the processing

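The counts above and below the median circRNA stayed within 1.5 times of 2694 and 2989 under every alternative run except normexp with an offset of 50, which gave 992 and 1710. Leaving out an array gave 2385 to 2838 above and 2794 to 3060 below. The count of IP above Sup was the least stable: 19 with normexp and an offset of 50, 34 with normexp without an offset, 50 without background correction, 651 with all spike-in probes, 48 before dye normalization and 2805 with within-array loess, and 118 to 658 without an array, against 405. Sup above IP moved past 1.5 times only with loess, to 2857, and was 5028 to 6301 without an array. Without the pairing (no replicate block) the 4 counts were 382, 5687, 2432 and 2696, and no count moved by 1.5 times.

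The median level was 28.8% with normexp without an offset, 29.4% without background correction, 27.6% before dye normalization and 50.3% with loess, which centres it by construction. It was 34.3% to 38.8% without an array. The difference between abundant and scarce circRNAs turned to 4.68 without background correction and 1.29 before dye normalization. It was 0.94 with loess, which removes the trend over intensity by construction. It was -1.63 with normexp and an offset of 50, -0.28 without the offset, -2.35 with detection in either channel, -7.35 with detection on at least 1 array, and -15.6 with Sup of the other 2 arrays as abundance. Without an array it was -9.88 to -8.81. The mRNA difference was 5.01 before dye normalization, 5.28 with loess, 1.64 with normexp and an offset of 50 and 4.48 without the offset, and 2.1 to 3.82 without an array. The cause of these shifts was not tested. The deposited table was not run for the mRNA difference, since its rows used here are circRNAs.

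With 3 arrays, no swap of dyes and no mock immunoprecipitation among the samples used here, levels order circRNAs within these arrays and give no share of methylated molecules. The IP channel had a median intensity of 36.5 to 39.0 over a background of 15 to 17. Whether this limits scarce probes most was not tested. RNase R treatment, amplification and the choice of spike-in probes act on every level. The part of RNase R treatment and of amplification was not tested. For the spike-in probes, scaling with all of them gave a median level of 38.4% against 36.2%. It gave 651 probes with IP above Sup against 405, and 5403 with Sup above IP against 5883.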

Other observations

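The 10 spike-in probes that set the scale had mean levels between 39.4% and 63.9% on the sham arrays, and 9 of them were detected in both channels on all 3 arrays. The 91 other spike-in probes with a mean level ranged from 13.7% to 72.3%, with a median of 50.9%.

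The array also holds 14 control circRNA probes, whose purpose is not given in the sources used here. All 14 were detected in both channels on the 3 sham arrays, and their mean levels ranged from 3.24% to 26.7%, with a median of 7.05%. The median of the tested circRNAs was 36.2%.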
